A study of Mus musculus with 4 samples.

Results

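The genes described here are 35 genes that the sterol regulatory element-binding proteins (SREBPs) and their counterpart, the liver X receptors (LXRs), are known to govern or to depend on: enzymes of sterol synthesis, enzymes of fatty acid synthesis and desaturation, the proteins that control the SREBPs, and genes of sterol efflux. They were chosen by symbol from a fixed list, and all 35 were found among the 17921 genes of the deposited table. RNA sequencing gave their expression in Th17 cells of the mouse, a class of CD4+ helper T cell named for its cytokine interleukin 17. The wild-type (WT) group was 2 mice. The knockout (KO) group was 2 mice labelled as knockouts of PRAK, a kinase downstream of p38 whose gene is Mapkapk5. From each mouse, naive CD4+ T cells were enriched and driven towards Th17 cells in vitro for 72 h, so day 3, and 1 library was made from the whole culture without a later sort. Both groups shared this treatment. The sources used here state neither age, sex and strain nor which part of Mapkapk5 was deleted. Libraries carry their mouse number (WT 1 and 2, KO 1 and 2), and paired values are always given in that order. The comparison of KO with WT asks, for these genes, how lipid synthesis transcripts differ between cells of the 2 labelled genotypes. The series itself, by its title, is about NRF2, redox balance and glycolysis.

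SREBPs are transcription factors made as precursors in the membrane of the endoplasmic reticulum. When sterols are scarce, SCAP escorts them to the Golgi, where proteases release the active part. When sterols are plentiful, the INSIG proteins hold SCAP back. SREBP-2, from Srebf2, is best known for driving sterol synthesis and uptake, and SREBP-1, from Srebf1, for driving fatty acid synthesis. LXRs sense oxysterols and drive sterol export, and they also induce Srebf1. In activated T cells this machinery supplies membrane lipids for growth.

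Levels are given as CPM, a gene's counts relative to the size of its library after TMM scaling. Changed, rose and fell mean an adjusted p under 0.05 in edgeR's quasi-likelihood test over all 12680 genes tested. Total expected counts lay between 19418012 and 20125124 per library. The KO libraries differed from each other more than the WT libraries did, with a chi-square per gene of 46.3 against 6.02, so values are given for each library. Mapkapk5 (gene ID 17165, chromosome 5, 121525051 to 121545892, GRCm38.p6) stood at 35.6 and 38.4 CPM in the WT mice and 20.04 and 21.6 CPM in the KO mice (log2 fold change -0.83 ± 0.13 SE, adjusted p = 0.0194), lower in both KO libraries. The fitted level was 43.8% lower, so transcripts of the gene remained. Since the deleted part is not stated, the count over the whole gene does not show whether PRAK was lost. That call was lost without WT 1 (adjusted p = 0.0918) or WT 2 (0.169). The T cell and Th17 markers Cd3e, Cd4, Il17a and Il17f were detected in every library, with Il17a between 237 and 643 CPM. Of 8 Th17 markers 1 rose (Ccr6), 1 fell (Il23r) and 6 did not pass. Of 15 myeloid markers 10 rose and 5 did not pass, and their summed level ranged from 167 to 289 TPM in WT and from 703 to 852 TPM in KO, with none at 0 in any library. Cd74 was the largest part of that sum in every library. Among 7 CD8 T and NK cell markers, 5 were tested and 1 rose. Their sum ranged from 99.8 to 223 TPM in WT and from 461 to 468 TPM in KO, and the NK cell genes Klrb1c and Ncr1 were at 0 in at least 1 WT library and at no more than 0.290 CPM in any. Of 5 B cell markers 1 rose (sum from 23.7 to 61.0 TPM in WT and from 87.8 to 99.1 TPM in KO). Of 3 erythroid markers 1 was tested and did not pass, and of 3 stroma markers tested 2 fell, Pecam1 (-1.35) and Col1a1 (-1.77). In the WT mice Pecam1 stood at 92.0 and 89.8 CPM, far above Col1a1 at 2.62 and 2.93 CPM. Whether the Pecam1 transcripts came from stroma was not tested. The part of these other cells in the results below was not tested. In a bulk sample, fewer cells of a type and less RNA per cell cannot be told apart.

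In cells labelled PRAK KO 21 of the 35 genes fell, 0 rose and 14 did not pass (edgeR). Over all genes tested 13.4% were called, 8.23% lower and 5.14% higher in KO. The largest falls were those of the desaturase genes Scd1 (-2.53 on the log2 scale), Fads2 (-2.34) and Scd2 (-1.81), followed by the elongase gene Elovl6 and the sterol carrier gene Stard4. The median log2 fold change of the 35 genes was -0.74, and that of all genes tested was 0.019. At least a 2-fold fall was called for 11 of the 35, against 5.09% of all genes tested. Both KO libraries lay below both WT libraries for 29 of the 35 genes, against 31.4% of all genes tested. The fitted change was below 0 for 30 of the 35, against 48.2%. Both KO libraries lay above for 1 gene, Scap (31.7% of all), and the genotypes overlapped for 5, Idi1, Ebp, Acaca, Fasn and Mylip. At an unadjusted p under 0.05, 25 of the 35 were lower, against 16.6% of all genes tested, and 1 was higher, Scap, against 15.1%. DESeq2 called Scap higher and limma-voom did not.

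**Figure D1:**
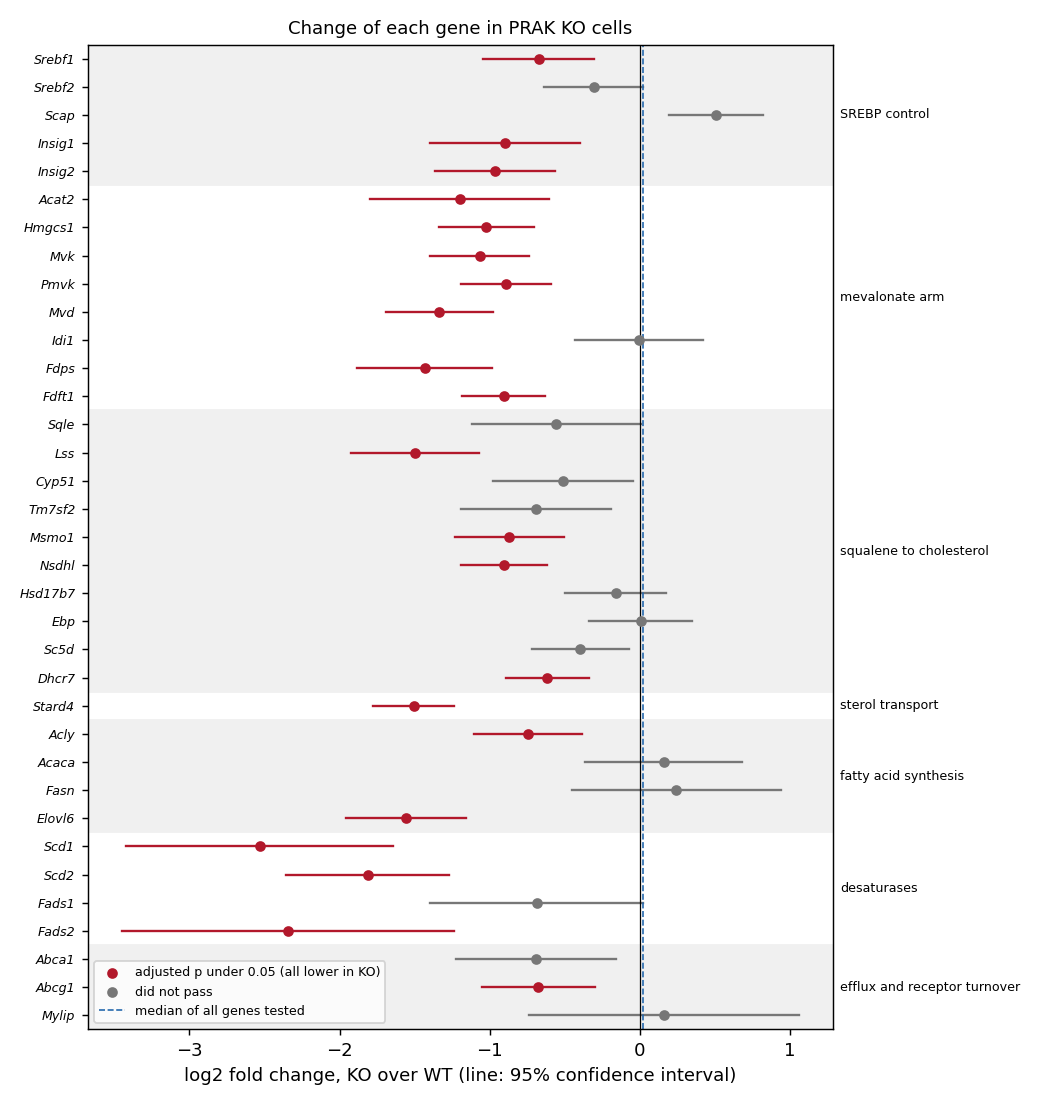
Change of each of the 35 genes, as the log2 fold change of KO over WT (horizontal axis) with its 95% confidence interval from edgeR, ordered by role. Red genes passed and lie left of 0, from -0.62 for Dhcr7 to -2.53 for Scd1, grey genes did not pass, and the dashed line is the median of all genes tested.

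Fewer falls were called when a WT library was left out. Such a fit keeps 1 WT mouse, so its spread comes from the KO pair alone. Without WT 1, 11 of the 35 genes were called lower, against 3.87% of the genes tested in that fit, and without WT 2 again 11, against 3.43%. In both cases all 11 were among the 21. Without KO 1 it was 28 genes (18.7% of all) and without KO 2 also 28 (24% of all), and both sets held all 21. The genes called higher were 0 without WT 1 (1.59% of all), 0 without WT 2 (1.85%), 1 without KO 1 (Scap, 17.3% of all) and 3 without KO 2 (Scap, Acaca and Fasn, 22.2%). With library size alone 18 of the 35 fell (6.81% of all), the calls of Srebf1, Insig1 and Abcg1 being lost. With limma on log2 TPM 15 fell (6.27%), without those 3 and without Acat2, Dhcr7 and Acly. Of the 21 genes, 10 were called in each of these fits: Hmgcs1, Mvk, Mvd, Fdps, Lss, Nsdhl, Stard4, Elovl6, Scd1 and Scd2. The plot of all genes tested places most of the list at middle to high levels, with Scd2 the most abundant.

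**Figure D2:**
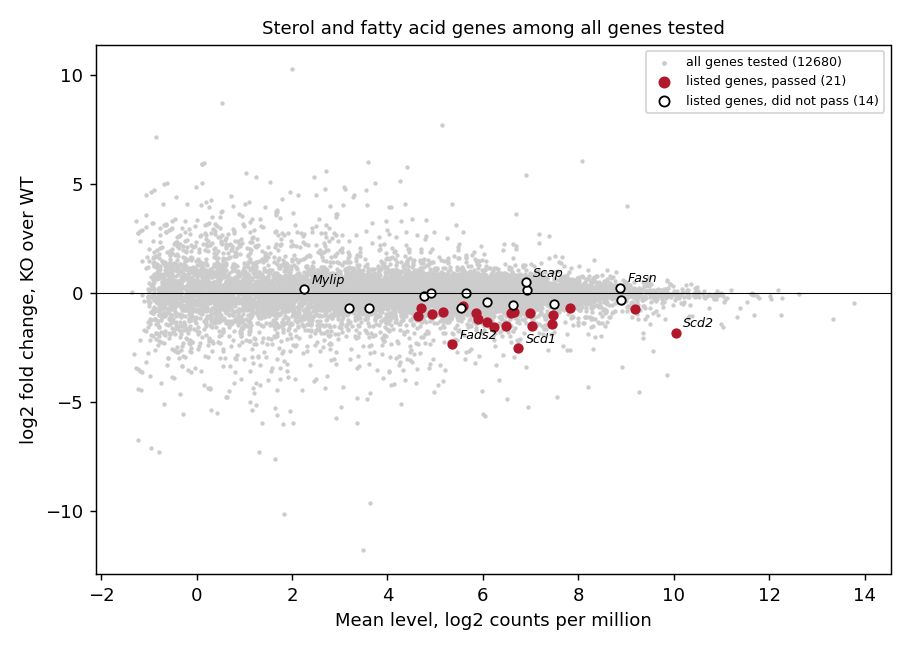
Mean level (log2 CPM) against log2 fold change of KO over WT for all 12680 genes tested (grey), with the 21 listed genes that passed in red and the 14 that did not as open circles. The red points lie below 0, and other genes at the same levels lie on both sides of it.

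Promoters of the genes were searched for motifs of the factors known to act there. The search covered both strands of windows of 300 bases, 250 before and 50 after each annotated start. The RefSeq promoter table (GRCm38.p6) held 27 of the 35 genes. Those not matched were Abcg1, Fads1, Fdft1, Fdps, Scd1, Scd2, Sqle and Stard4. A long form of the sterol response element, TCACNCCAC, was found for 1 gene, Hmgcs1, and in 1.44% of all 27025 genes in the table. The shorter CACNCCAC, which lies within the long form, was found for 3 genes, Hmgcs1, Acat2 and Insig1, which is 11.1% of the 27, against 7.12% of all. CCAAT, the box bound by NF-Y, a partner of SREBPs, was found for 21 of the 27 (77.8%), against 41.1% of all. It was present for 12 of the 15 matched genes that fell and 9 of the 12 that did not pass. GGGCGG, the GC box, was found for 23 (85.2%, against 38.2% of all), and the E-box CACGTG for 6 (22.2%, against 8.09%). The GC box was present for 13 of the 15 that fell and 10 of the 12 that did not pass, and the E-box for 2 and 4. The 27025 genes include genes not tested here, so these shares are not matched for expression. A match of letters is a description of the window and not a measured binding site. The 250 bases before the start are printed for the 3 genes with CACNCCAC, all of which fell, to show where the sterol motif lies and whether an NF-Y box is near it. Capitals mark CACNCCAC and CCAAT on either strand, so that runs beginning with GTGG or ATTGG are matches on the opposite strand.
Hmgcs1 (chr13:119690101-119690350, + strand): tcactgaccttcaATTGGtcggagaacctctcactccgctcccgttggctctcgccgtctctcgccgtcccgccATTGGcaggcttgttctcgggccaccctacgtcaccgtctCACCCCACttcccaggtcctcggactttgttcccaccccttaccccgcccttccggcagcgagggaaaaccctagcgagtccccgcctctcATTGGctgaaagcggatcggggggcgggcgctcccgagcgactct
Acat2 (chr17:12960726-12960975, - strand): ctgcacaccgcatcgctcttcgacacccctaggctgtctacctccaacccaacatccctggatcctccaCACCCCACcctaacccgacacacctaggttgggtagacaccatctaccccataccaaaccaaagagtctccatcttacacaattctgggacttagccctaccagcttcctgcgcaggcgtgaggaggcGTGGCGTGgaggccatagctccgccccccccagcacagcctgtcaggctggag
Insig1 (chr5:28071162-28071411, + strand): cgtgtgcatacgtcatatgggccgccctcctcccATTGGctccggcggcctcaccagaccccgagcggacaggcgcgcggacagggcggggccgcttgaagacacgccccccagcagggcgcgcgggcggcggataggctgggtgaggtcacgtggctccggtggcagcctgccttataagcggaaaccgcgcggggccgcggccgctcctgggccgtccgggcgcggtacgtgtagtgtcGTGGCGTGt
In this stretch Hmgcs1 had 1 sterol motif and 3 NF-Y boxes, Acat2 had 2 sterol motifs and 0 NF-Y boxes, and Insig1 had 1 of each. Relative to the start, the sterol motif of Insig1 began at -9 and its NF-Y box at -216, so they were not close together. For Hmgcs1 the sterol motif began at -136 and the NF-Y boxes at -237, -176 and -45.

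Among the 5 genes of SREBP control 3 fell, 0 rose and 2 did not pass. Srebf1 (gene ID 20787, chromosome 11, 60199084 to 60224186) stood at 283 and 272 CPM in the WT mice and 193 and 155 CPM in the KO mice (log2 fold change -0.67 ± 0.15 SE, adjusted p = 0.0422). Its 2 genotypes did not overlap, and KO 2 was the lowest. Srebf2 (gene ID 20788, chromosome 15, 82147269 to 82205379), the sterol-directed factor, stood at 549.8 and 502 CPM in the WT mice and 428 and 422 CPM in the KO mice. Both KO libraries lay below both WT libraries, but the change did not pass (log2 fold change -0.31 ± 0.13 SE, adjusted p = 0.175). Insig1, itself a target that SREBPs induce, stood at 129 and 122 CPM in the WT mice and 80.3 and 54.4 CPM in the KO mice (log2 fold change -0.90 ± 0.20 SE, adjusted p = 0.0432). Insig2, the second anchor of SCAP, stood at 40.1 and 40.7 CPM in the WT mice and 18.2 and 23.1 CPM in the KO mice (log2 fold change -0.97 ± 0.16 SE, adjusted p = 0.0214). For Insig1 KO 2 was the lowest library, and for Insig2 it was KO 1. Scap, the escort protein gene, went the other way, with 105 and 92.7 CPM in the WT mice and 147 and 133 CPM in the KO mice. Both KO libraries were the higher ones, and the test was missed in edgeR (log2 fold change 0.50 ± 0.13 SE, adjusted p = 0.0559) but passed with DESeq2 (adjusted p = 0.0196). The exons of Scap are overlapped over 13.2% of their bases by 5830462I19Rik on the opposite strand, so its count is uncertain without strand. The calls of Srebf1, Insig1 and Insig2 were lost without either WT library (adjusted p from 0.0638 to 0.238). Those of Srebf1 and Insig1 were also lost with scaling by library size alone (adjusted p = 0.0574 and 0.0537).

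**Figure D3:**
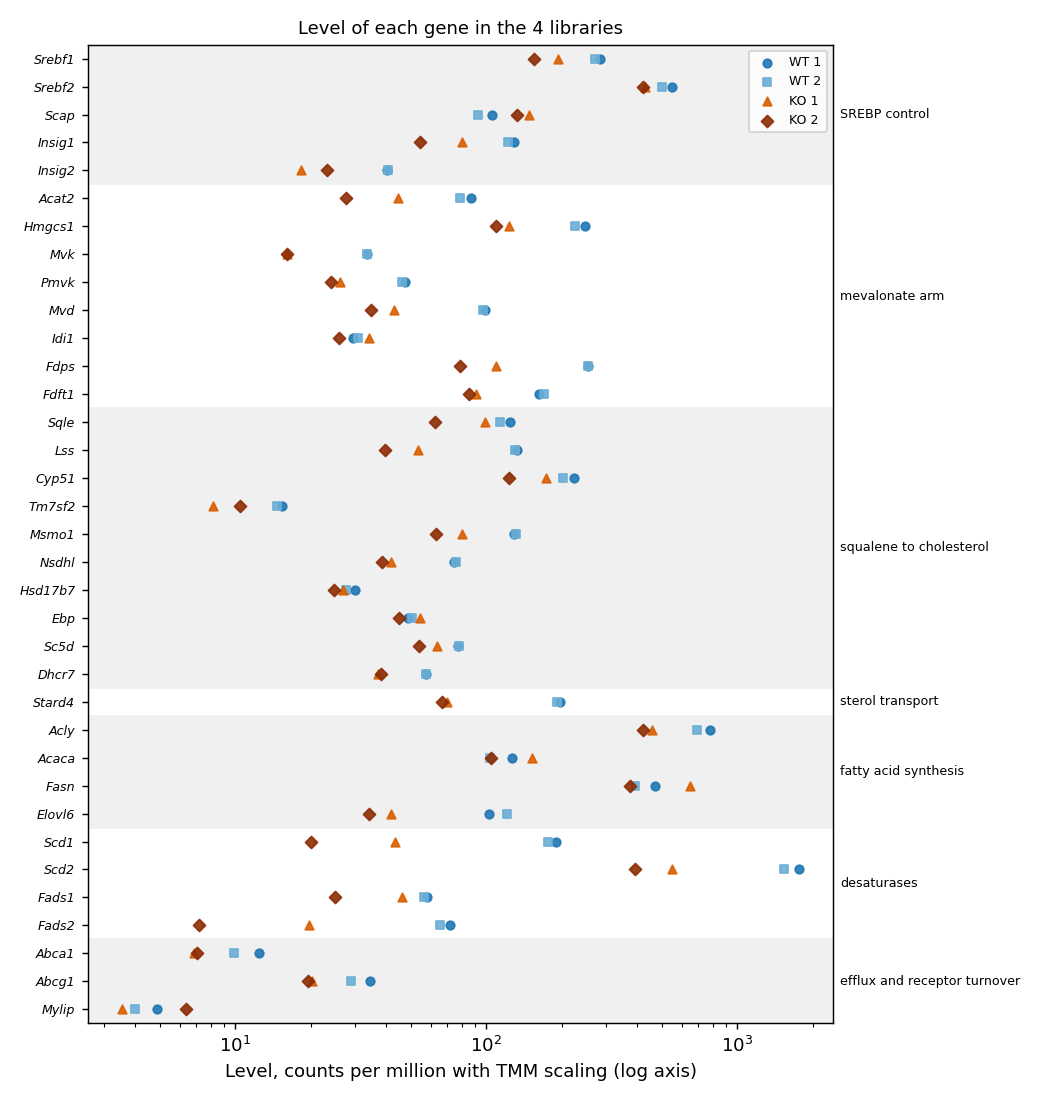
Level of each gene in the 4 libraries, in CPM with TMM scaling on a log axis, ordered by role. Blue points are WT and orange and brown points are KO, and for 29 genes both KO points lie left of both WT points.

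The mevalonate arm, which builds squalene from acetyl-CoA, had 7 of its 8 genes lower in KO and 1 with no call, with a median log2 fold change of -1.04. Acat2, the cytosolic thiolase of the first condensation, stood at 86.7 and 78.8 CPM in the WT mice and 44.6 and 27.5 CPM in the KO mice (log2 fold change -1.20 ± 0.24 SE, adjusted p = 0.0332). KO 2 was well below KO 1, and both were below WT. Hmgcs1 (gene ID 208715, chromosome 13, 119690351 to 119708260), the HMG-CoA synthase, stood at 248 and 225 CPM in the WT mice and 124 and 109 CPM in the KO mice (log2 fold change -1.02 ± 0.13 SE, adjusted p = 0.0102), so its fitted level was 50.8% lower. The kinase gene Mvk stood at 33.5 and 33.6 CPM in the WT mice and 16.0 and 16.1 CPM in the KO mice (log2 fold change -1.07 ± 0.13 SE, adjusted p = 0.0102). The libraries of each genotype were almost equal for Mvk. Pmvk, the next kinase, stood at 47.2 and 46.0 CPM in the WT mice and 26.1 and 24.2 CPM in the KO mice (log2 fold change -0.89 ± 0.12 SE, adjusted p = 0.0128). The decarboxylase gene Mvd stood at 98.9 and 96.9 CPM in the WT mice and 42.8 and 34.7 CPM in the KO mice (log2 fold change -1.34 ± 0.14 SE, adjusted p = 0.00733). Both kept the genotypes apart, with KO 2 the lowest. Fdps, the farnesyl diphosphate synthase at the branch to sterols and prenyl groups, stood at 254 and 255 CPM in the WT mice and 109 and 78.8 CPM in the KO mice (log2 fold change -1.43 ± 0.18 SE, adjusted p = 0.0106). Fdft1, the squalene synthase that commits the path to sterols, stood at 162 and 169 CPM in the WT mice and 91.3 and 85.3 CPM in the KO mice (log2 fold change -0.91 ± 0.11 SE, adjusted p = 0.00987). Fdps had the larger fall, 63.0% against 46.7%, a difference that was not tested. Idi1, the isomerase between Mvd and Fdps, was the exception. It averaged 30.1 ± 0.962 CPM in WT and 29.96 ± 5.68 in KO (SD, n = 2 each), the genotypes overlapped, and the change of -0.0070 had an interval of -0.43 to 0.42 (adjusted p = 0.982). Its sign turned with library size alone.

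Some of these genes share sequence with other genes. RSEM divides reads by a model between such genes where both are in its annotation. Of the distinct 50-base stretches in the GENCODE transcripts of Fdps, 64.1% also occur in another gene. For Acat2 it was 40.6%, all in its copy Acat3, which lay between 1.29 and 1.93 CPM. For Idi1 it was 19.97% and for Fdft1 10.8%. The main partners of Fdps (Gm43738), Idi1 (Gm13502) and Fdft1 (Gm6781) have no row in the deposited table. Whether RSEM divided reads with them is not known. The exons of Fdft1 are also overlapped over 18.3% of their bases by Ctsb on the opposite strand, those of Hmgcs1 over 12.1% by Gm48342 and those of Idi1 over 9.21% by Gm48574. No source used here says that strand was kept. Ctsb did not pass (0.14, adjusted p = 0.549). Values of Fdps, Acat2, Idi1, Fdft1 and Hmgcs1 are therefore uncertain, to an extent that was not tested. Calls were lost for Acat2 without WT 1 (adjusted p = 0.0505), for Fdft1 without WT 2 (0.0512) and for Pmvk without either (0.0608 to 0.0791).

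From squalene to cholesterol the picture was more mixed, with 4 of 10 genes lower and 6 with no call (median log2 fold change -0.59). Lss (gene ID 16987, chromosome 10, 76531565 to 76557139), the cyclase that makes lanosterol, stood at 133 and 129.7 CPM in the WT mice and 53.4 and 39.4 CPM in the KO mice (log2 fold change -1.50 ± 0.17 SE, adjusted p = 0.00867). It had the largest change of the 18 sterol synthesis genes, a fitted level 64.6% lower. Msmo1, which oxidises the methyl groups that are to be removed, stood at 129 and 132 CPM in the WT mice and 79.8 and 63.2 CPM in the KO mice (log2 fold change -0.87 ± 0.15 SE, adjusted p = 0.0225). Nsdhl, the dehydrogenase of the same step, stood at 74.3 and 75.6 CPM in the WT mice and 41.7 and 38.4 CPM in the KO mice (log2 fold change -0.90 ± 0.12 SE, adjusted p = 0.0108). Both lay apart from WT in each KO mouse. Dhcr7, the reductase of the last step, stood at 57.4 and 57.7 CPM in the WT mice and 36.9 and 38.2 CPM in the KO mice (log2 fold change -0.62 ± 0.11 SE, adjusted p = 0.0256). Its 2 libraries of each genotype were close together. Of the genes with no call, 5 had both KO libraries below both WT libraries, an order found for 31.4% of all genes tested. These were Sqle, the epoxidase and a control point of the path (-0.56, adjusted p = 0.162), Cyp51, the lanosterol demethylase (-0.51, adjusted p = 0.130), Tm7sf2, a sterol reductase (-0.69, adjusted p = 0.0795), Sc5d, a sterol desaturase (-0.40, adjusted p = 0.102), and Hsd17b7, a ketosterol reductase (-0.16, adjusted p = 0.463). Sqle averaged 119 ± 7.05 CPM in WT and 80.7 ± 25.7 in KO (SD, n = 2 each), with KO 1 at 98.9 and KO 2 at 62.5. Ebp, the sterol isomerase, averaged 49.7 ± 1.27 CPM in WT and 49.8 ± 6.69 in KO and overlapped, with an interval of -0.34 to 0.35 around 0.0047 (adjusted p = 0.985). For Tm7sf2, which had the lowest CPM of the arm, the interval was -1.19 to -0.19. Calls of Msmo1 (adjusted p from 0.0610 to 0.0687) and Dhcr7 (0.222 to 0.244) were lost without either WT library. Transcripts of Tm7sf2 share 19.5% of their 50-base stretches with the neighbouring Vps51.

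Stard4, a soluble carrier that moves sterol between membranes and is a classic SREBP-2 target, had the smallest p of the 35 genes. It stood at 197 and 191 CPM in the WT mice and 69.7 and 66.9 CPM in the KO mice (log2 fold change -1.51 ± 0.11 SE, adjusted p = 0.00308). The fitted level was 64.8% lower, the KO mice were nearly equal, and the change ranged only from -1.54 to -1.36 over the 13 alternatives tried.

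The core of fatty acid synthesis split. Of its 4 genes 2 fell, 0 rose and 2 did not pass. Acly (gene ID 104112, chromosome 11, 100476352 to 100528000), the ATP citrate lyase that supplies cytosolic acetyl-CoA, stood at 778 and 692 CPM in the WT mice and 457 and 419.9 CPM in the KO mice (log2 fold change -0.74 ± 0.14 SE, adjusted p = 0.0306). Elovl6 (gene ID 170439, chromosome 3, 129532386 to 129638495), which lengthens the palmitate that Fasn makes, stood at 102 and 121 CPM in the WT mice and 41.8 and 33.9 CPM in the KO mice (log2 fold change -1.56 ± 0.16 SE, adjusted p = 0.00678). WT and KO were far apart for Elovl6, with a fitted level 66.0% lower. Fasn, the fatty acid synthase itself, stood at 471 and 392 CPM in the WT mice and 647 and 373 CPM in the KO mice. KO 1 was the highest library and KO 2 the lowest, so the KO mice lay on either side of WT (log2 fold change 0.24 ± 0.28 SE, adjusted p = 0.595, interval -0.46 to 0.94). Acaca, the acetyl-CoA carboxylase of the committed step, which earlier work has tied to Th17 differentiation, averaged 115 ± 15.7 CPM in WT and 128 ± 33.5 in KO (SD, n = 2 each). It too was highest in KO 1 (152 CPM, against 104 in KO 2), and its change of 0.16 had an interval of -0.37 to 0.68. Their signs depended on the mouse: without KO 2, Fasn (0.58) and Acaca (0.40) were above 0. Without KO 1 they were -0.21 and -0.14. Of Acaca's 50-base stretches 49.1% also occur in the annotated gene Gm5182, which has no row in the deposited table. Whether reads were divided with Gm5182 is not known, so the count of Acaca is uncertain. The call of Acly was lost without either WT library (adjusted p from 0.187 to 0.314).

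The desaturases, which put double bonds into fatty acids, held the 3 largest falls, with 3 of 4 genes lower and 1 with no call (median log2 fold change -2.08). Scd1 (gene ID 20249, chromosome 19, 44394450 to 44407709), a stearoyl-CoA desaturase that makes monounsaturated fatty acids, stood at 189.7 and 176 CPM in the WT mice and 43.1 and 20.03 CPM in the KO mice (log2 fold change -2.53 ± 0.36 SE, adjusted p = 0.0141). The KO libraries were far below WT and differed from each other, KO 1 being 2.15 times KO 2. Scd2 (gene ID 20250, chromosome 19, 44293676 to 44306864), its neighbour on the same chromosome and the more abundant paralog here, stood at 1764 and 1536 CPM in the WT mice and 549 and 389.9 CPM in the KO mice (log2 fold change -1.81 ± 0.22 SE, adjusted p = 0.00960). Both fell, by a fitted 82.7% for Scd1 and 71.5% for Scd2. Only 4.61% and 4.01% of their 50-base stretches occur in any other gene, so these paralogs can largely be told apart. Fads2 (gene ID 56473, chromosome 19, 10062765 to 10101503), which starts the desaturation of polyunsaturated fatty acids, stood at 71.4 and 65.1 CPM in the WT mice and 19.7 and 7.16 CPM in the KO mice (log2 fold change -2.34 ± 0.44 SE, adjusted p = 0.0290). Fads1, the later desaturase of that path, stood at 57.9 and 56.7 CPM in the WT mice and 46.1 and 25.0 CPM in the KO mice. For Fads2 both KO mice were far below WT, while for Fads1 KO 1 was nearer to WT than KO 2 was, and the change did not pass (-0.69, adjusted p = 0.168). With KO 1 left out, Scd1 changed by -3.19 and Fads2 by -3.25 on the log2 scale. The call of Fads2 was lost without WT 1 (adjusted p = 0.293) or WT 2 (0.351).

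Among the genes of sterol efflux and receptor turnover, which LXRs induce, 1 of 3 fell and 2 did not pass. Abcg1, a sterol exporter, stood at 34.5 and 29.0 CPM in the WT mice and 20.2 and 19.4 CPM in the KO mice (log2 fold change -0.68 ± 0.15 SE, adjusted p = 0.0426). Abca1, the exporter that loads apolipoprotein, stood at 12.5 and 9.88 CPM in the WT mice and 6.82 and 7.01 CPM in the KO mice (log2 fold change -0.69 ± 0.21 SE, adjusted p = 0.0922). Both KO libraries were below both WT libraries for each exporter, although only Abcg1 passed. Mylip, a ubiquitin ligase that limits sterol uptake, stood at 4.87 and 3.97 CPM in the WT mice and 3.53 and 6.36 CPM in the KO mice. The KO mice lay on either side of WT, and its interval was wide (-0.74 to 1.06, adjusted p = 0.795). The summed level of the myeloid markers was higher in both KO libraries than in both WT libraries, with 10 of 15 past the test, and its part in the exporters' values was not tested. The call of Abcg1 was lost without either WT library (adjusted p from 0.160 to 0.406) and with library size alone (0.0594).

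Levels can be compared between genes as TPM, each gene's share of transcripts after correction for length. In WT the highest of the 35 was Scd2, with 546 ± 65.5 TPM in WT and 167 ± 47.7 in KO (SD, n = 2 each). Fdps followed with 372 ± 8.10 TPM in WT and 149 ± 41.6 in KO, and Acly with 300.3 ± 31.6 TPM in WT and 192 ± 20.6 in KO. In KO the order at the top was Acly, Srebf2, Scd2 and Fdps, of which Srebf2 (202 ± 17.6 TPM in WT and 175 ± 10.1 in KO) and Acly did not lie apart beyond their spread, nor did Srebf2 and Scd2 or Scd2 and Fdps. The lowest were Mylip and Abca1 in both genotypes, with Abca1 at 1.96 ± 0.368 TPM in WT and 1.29 ± 0.0354 in KO. Fads2 went from rank 11 to rank 27 of the 35 and Scd1 from 18 to 29, while Fasn went from 14 to 5 and Scap from 24 to 9.

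Summed over its 8 genes, the mevalonate arm held 900.1 and 855 TPM in the WT mice and 479 and 358 TPM in the KO mice. The 10 genes from squalene to cholesterol held 604 and 564 TPM in the WT mice and 469 and 349.9 TPM in the KO mice. The 4 desaturases together held 783 and 671 TPM in the WT mice and 272 and 164 TPM in the KO mice. In each of these sums KO 2 was the lowest and WT 1 the highest library, and the genotypes did not overlap. The 4 fatty acid synthesis genes held 466 and 404 TPM in the WT mice and 385 and 280.2 TPM in the KO mice, a smaller gap, while Acly alone went from 300.3 to 192 TPM. The myeloid marker sum stood at 167 and 289 TPM in the WT mice and 703 and 852 TPM in the KO mice, the opposite order between the genotypes. Cd74 alone gave 80.5 and 174 TPM of it in the WT mice and 484 and 406 TPM in the KO mice.

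**Figure D4:**
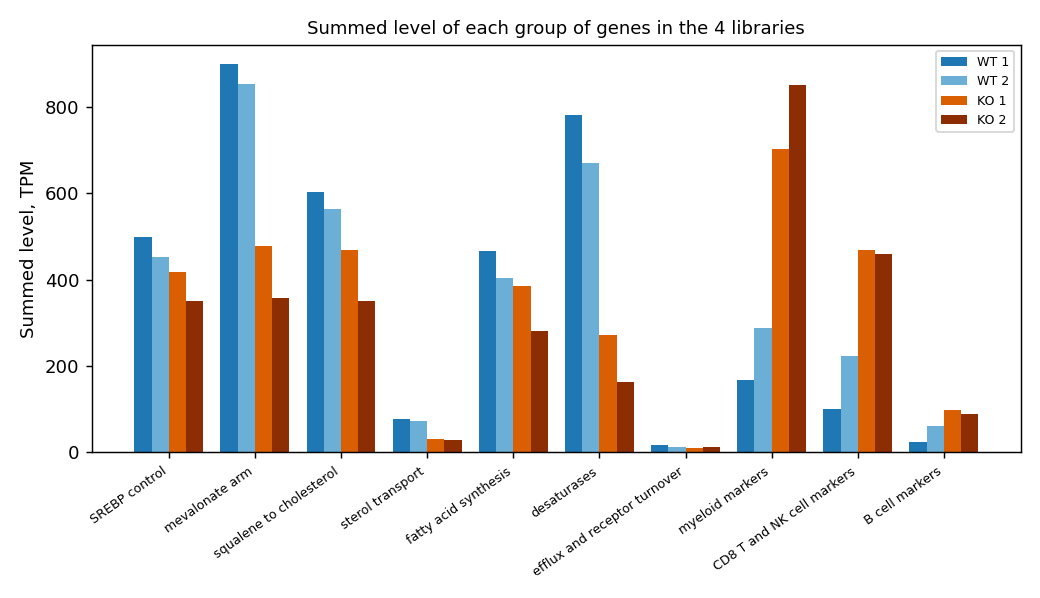
Summed level in TPM (bars from 0) of each role group and of markers of other cell types in the 4 libraries, with 1 bar per library. Mevalonate and desaturase sums are lower in both KO bars than in both WT bars, and the myeloid, CD8 T and NK, and B cell marker sums are higher.

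The gap between the 2 KO mice varied over these genes, and for Srebf2, Mvk and Stard4 the mice were nearly equal. KO 2 lay below KO 1 for 29 of the 35 genes, against 49.8% of all genes tested. The median log2 difference of KO 2 from KO 1 was -0.27 for the list and 0.0022 for all genes tested. This compares 2 libraries, not 2 conditions, and has no test. The 6 exceptions were Insig2, Mvk, Tm7sf2, Dhcr7, Abca1 and Mylip. The WT mice leaned the same way, with WT 2 below WT 1 for 24 of the 35 genes. For that order the share over all genes tested was not counted. Between the KO mice the gap was widest for Fads2, for which KO 1 was 2.75 times KO 2. Scd1 (2.15 times) and Fads1 (1.85 times) followed. Set against the same WT mice, both KO mice had a negative log2 fold change for 29 of the 35 genes. The same 29 genes had both KO libraries below both WT libraries, an order found for 31.4% of all genes tested. The marker lists also differed between these 2 libraries. Of the 15 myeloid markers 12 were higher in KO 2 than in KO 1 and 3 were lower (Clec7a, Cd74 and Flt3). Of the 8 Th17 markers 6 were lower in KO 2, with the widest gaps for Il22 (189.8 CPM in KO 1, 51.8 in KO 2) and Il17f (1994 and 637), and 2 were higher, Cd4 (516 and 939.5) and Cd3e (165 and 226). The part of these differences in the sterol and fatty acid genes was not tested.

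**Figure D5:**
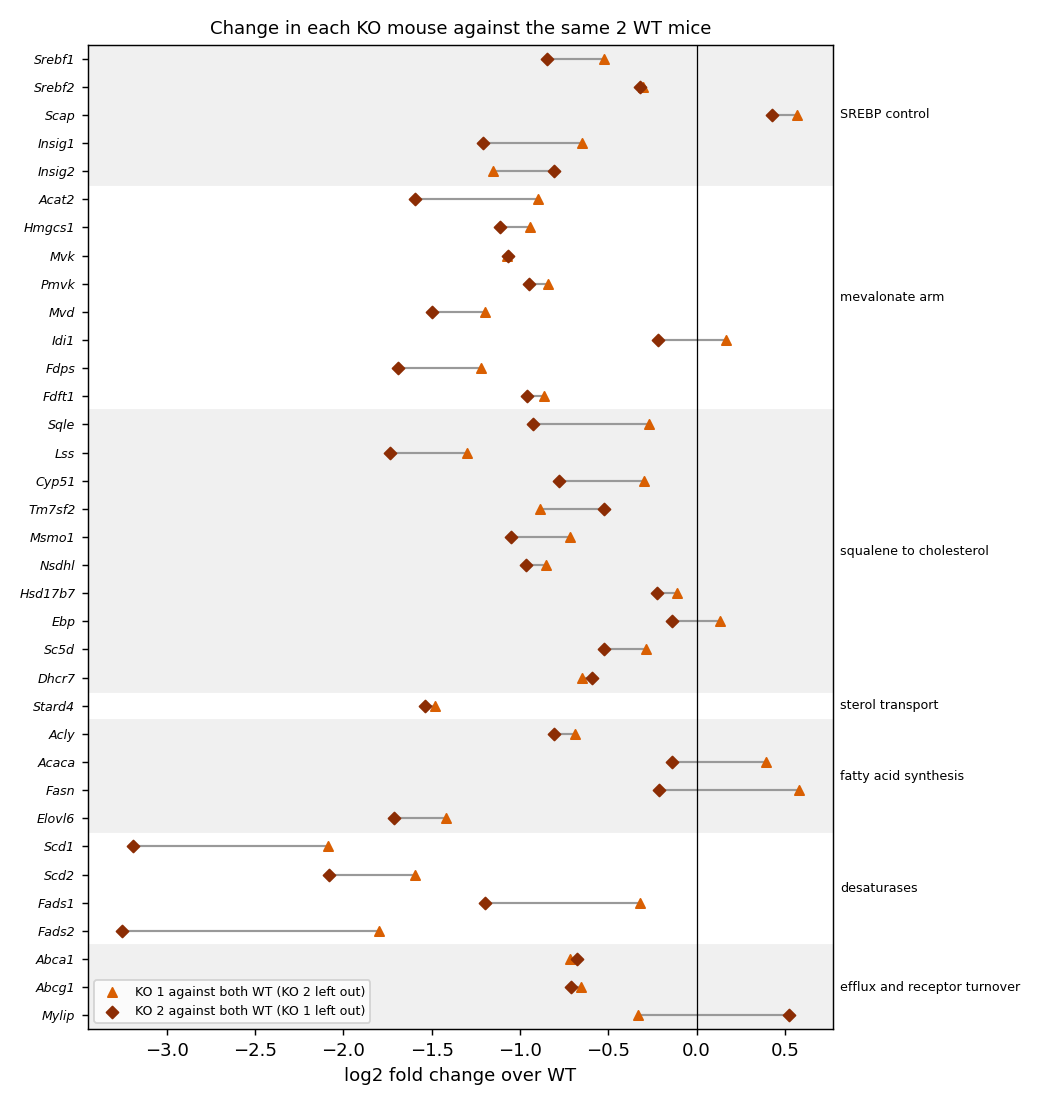
Log2 fold change of each gene when KO 1 alone (triangles) or KO 2 alone (diamonds) is set against the same 2 WT libraries, joined by a grey line. Diamonds lie left of triangles for most genes, and Fads2 has -1.80 for KO 1 and -3.25 for KO 2, while Stard4 and Mvk show nearly equal values.

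Among 50 other genes of the same pathways, 42 were tested: 7 fell, 0 rose and 35 did not pass (edgeR). The share that fell was 16.7%, against the 8.23% of all genes tested, and the median log2 fold change was -0.25. At an unadjusted p under 0.05 there were 16 of 42 lower, against 16.6% of all genes tested, and 1 higher, against 15.1%. The higher one was Cpt1a, the gate of fatty acid oxidation (0.36, adjusted p = 0.142). Acss2, which makes acetyl-CoA from acetate and is an SREBP target, had the largest fall, with 43.4 and 43.0 CPM in the WT mice and 8.91 and 12.2 CPM in the KO mice (log2 fold change -2.04 ± 0.19 SE, adjusted p = 0.00505). Every KO library lay below every WT library for Acss2. Pcyt2, of phosphatidylethanolamine synthesis (-0.81, adjusted p = 0.0323), Nr1h2, which encodes an LXR (-0.52, adjusted p = 0.0411), and Fabp5, a fatty acid carrier (-0.81, adjusted p = 0.0489), also fell. The mitochondrial citrate carrier gene Slc25a1 just missed the test (-0.71, adjusted p = 0.0539). The proteases that release SREBPs did not pass: Mbtps1 (0.035, adjusted p = 0.856) and Mbtps2 (0.082, adjusted p = 0.729). As over all genes tested, fewer genes of this list were called lower without either WT library and more without either KO library. The log2 fold change of Acss2 lay from -2.28 to -1.83 with 1 library left out. The calls of Pcyt2, Nr1h2 and Fabp5 were lost without either WT library.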

How the data were processed

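RNA sequencing libraries from 4 mice, 2 WT and 2 PRAK KO, were analysed as 1 library per mouse. In fits of all 4 libraries, p-values therefore measure the spread between animals and their cultures. A fit with 1 library left out takes its spread only from the genotype that keeps 2 mice. The deposited table gives RSEM expected counts, which are estimated reads per gene made by the authors and not normalised (69.4% of the values were whole numbers). It also gives TPM and FPKM, which the authors scaled to gene length and library size, per the file headers. FPKM values were not used. RSEM 1.2.12, Bowtie2 2.2.5, HISAT2 2.0.4 and the build GRCm38.p6 are listed, without roles, in the submitters' processing notes. Kit, strand and annotation: not given in the sources used here. Gene IDs linked 17787 of 17921 genes to RefSeq of that build, and 23 symbols turned into dates were restored.

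Expected counts were rounded, filtered with filterByExpr (minimum count 10, minimum total 15, leaving 12680 genes), scaled with TMM and tested with edgeR 4.0.16 (R 4.3.3) by the robust quasi-likelihood test with genotype as the single term. P-values were adjusted by Benjamini-Hochberg over all genes tested, with a threshold of 0.05. With 2 residual degrees of freedom the prior added 3.58. Standard errors and 95% intervals came from the fold change and its F statistic. Alternatives used DESeq2 1.42.0 and limma 3.58.1, the latter also on log2(TPM + 0.5). On simulated counts over 12509 genes, 70 of 99 genes changed by a log2 of 1 and 89 of 100 changed by 2 were recovered. There, 7 unchanged genes were called. Those counts were drawn with the trended dispersion alone, the same in both genotypes. They therefore leave out the wider spread of the KO pair and do not measure recovery in the real data. The members, lists and tests were chosen with earlier results of these data known. All 35 members are named. Per-library levels are given for those that passed and, whatever their result, for the SREBP control and efflux genes, Fasn, Scd1 and Scd2. Those of Fads1, and those of Sqle and Acaca in the KO mice, were added after their values were seen. Promoters are printed for genes that passed and hold CACNCCAC. Of the other pathway genes, those among the 8 with the smallest p-values are named with values except 3 that are not reported here, and Cpt1a, Mbtps1, Mbtps2 and the single marker genes named were added after their values were seen. Marker genes Trac and Ighm were not used here. Promoters came from RefSeq, and shared 50-base stretches and exon overlaps from GENCODE M21 (GRCm38).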

Additional observations from a re-analysis of the deposited data

How the results depend on the processing

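The 21 falls kept their direction in each of the 13 alternatives, and 10 of them (Hmgcs1, Mvk, Mvd, Fdps, Lss, Nsdhl, Stard4, Elovl6, Scd1 and Scd2) also kept an adjusted p under 0.05 in each. The number of the 35 genes called lower was 18 with library size alone, 15 with limma on log2 TPM, and 21 with RLE scaling, DESeq2, limma-voom, no filter, a stricter filter (at least 50 counts in 2 libraries) and a dispersion that was not robust (6.51% to 10.3% of all genes tested). Leaving out 1 library gave 11 to 28, with a median log2 fold change from -0.93 to -0.68, and 0 to 3 genes called higher. The 1 gene called higher with library size alone, DESeq2 or the stricter filter was Scap. Over all genes 1695 were called, and 693 to 5999 with 1 library left out. Library size alone moved the median of all genes from 0.019 to 0.12. It called 918 genes higher and 864 lower, in place of 652 and 1043, and the cause of these shifts was not tested. For the other pathway genes the count of 7 became 4 with library size alone, 11 with DESeq2, 2 with limma on log2 TPM and 2 to 19 with 1 library left out. Mapkapk5 ranged from -0.89 to -0.78 with 1 library left out.

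Of genes with no call, 5 changed sign. Idi1 was 0.090 with library size alone and 0.078 with limma on log2 TPM. Ebp was -0.0012 with limma-voom, -0.0021 with no filter and -0.0011 with the replicate block. With 1 library left out, Idi1 ranged from -0.22 to 0.17, Ebp ranged from -0.14 to 0.13, Acaca ranged from -0.14 to 0.40, Fasn ranged from -0.21 to 0.58 and Mylip ranged from -0.33 to 0.52.

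The mouse numbers 1 and 2 occur in both genotypes, but nothing in the labels says that they pair mice. Deviations of same-numbered libraries from their genotype means correlated across genes at 0.175. With the mouse number as a block, 2935 genes were called. Of the 35 genes 24 fell (12.6% of all genes tested) and 1 rose, Scap (10.6%), and of the other pathway genes 14 fell. The least abundant of the 35 genes were Mylip and Abca1, between 3.53 and 12.5 CPM, and what depth alone limits was not tested. Only 2 mice per genotype stand behind every value.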
